A study of Mus musculus with 52 samples.

Results

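The comparison described here is between the parenchymal (non-endothelial) cells of the adult mouse cerebellum and those of the anterior pituitary. It rests on 4 RNA-seq libraries of the 52 samples in the series, 2 from each tissue, and the libraries were chosen by their labels alone. All 4 came from adult male mice of the genotype Tie2-GFP, which are WT for beta-catenin and carry a GFP transgene under the endothelial Tie2 (Tek) promoter. The tissue was dissociated with papain, viable cells were sorted by flow cytometry, and the GFP-negative cells, everything that the transgene did not mark, were sequenced. For the pituitaries, each replicate was a pool of 20 to 30 mice aged P30 to P90. The number of mice behind each cerebellum library was not given in the sources used here, so p-values measure the spread between libraries, not mice. That spread was estimated over the 12 GFP-negative libraries of the series, which include stabilized and posterior pituitary ones. The same contrast was also fitted in 4 libraries of GFP-negative cells from mice with endothelial beta-catenin stabilization (genotype Tie2-GFP; Pdgfb-CreER; BcatEx3fl, also adult males, in which 4HT given at P10 lets CreER act in cells that express Pdgfb), 2 per tissue. Salmon, the quantifier used by the authors, assigned 33096724 and 35930249 reads to the WT cerebellum libraries and 31560159 and 31643746 to the WT anterior pituitary libraries.

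The cerebellum is a brain region with a blood-brain barrier, built mainly from granule neurons, Purkinje cells, inhibitory interneurons and glia, among them the Bergmann glia, specialized astrocytes that surround Purkinje cell dendrites. The anterior pituitary is a peripheral endocrine gland that develops from oral ectoderm and has fenestrated capillaries. Its cells are grouped by the hormone they secrete: lactotrophs (prolactin), somatotrophs (growth hormone), corticotrophs (ACTH, made from Pomc), thyrotrophs (TSH) and gonadotrophs (LH and FSH). Parenchymal cells also signal to nearby vessels, chiefly through Wnt ligands and Norrin, which sustain the blood-brain barrier through beta-catenin in ECs, and through VEGF, which sustains fenestrated capillaries.

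The promoters below show the sequence around the start sites of genes from each side of the comparison that are described in the next paragraphs. They were chosen after their values were seen. Prl and Pou1f1 stand for the lactotroph program, Chgb for the secretory granules of endocrine cells, and Mobp for the oligodendrocytes of the cerebellum. Each runs 5′ to 3′ on the strand of the gene, from 250 bases before the RefSeq start site to 50 bases after it, in build GRCm38.p6. Capitals mark matches on either strand to TATNCAT, the core recognized by POU1F1 (Prl and Pou1f1), to TGACGTCA, the cyclic AMP response element (Chgb), or to ACAAAG, a core bound by SOX proteins (Mobp). The motifs were searched separately, and the marked matches are descriptions of letters, not of binding.
Prl, chr13:27057320-27057619, + strand: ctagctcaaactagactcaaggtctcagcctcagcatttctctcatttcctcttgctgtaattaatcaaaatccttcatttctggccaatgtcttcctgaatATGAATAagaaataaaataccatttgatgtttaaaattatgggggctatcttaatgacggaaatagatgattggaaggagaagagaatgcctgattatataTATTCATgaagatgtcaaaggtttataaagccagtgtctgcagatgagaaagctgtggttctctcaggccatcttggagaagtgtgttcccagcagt
Pou1f1, chr16:65520262-65520561, + strand: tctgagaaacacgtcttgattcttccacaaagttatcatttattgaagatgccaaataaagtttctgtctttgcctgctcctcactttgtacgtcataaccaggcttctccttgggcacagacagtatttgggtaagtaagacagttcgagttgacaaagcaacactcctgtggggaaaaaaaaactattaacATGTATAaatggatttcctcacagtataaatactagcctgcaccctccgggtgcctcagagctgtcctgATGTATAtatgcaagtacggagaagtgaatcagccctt
Chgb, chr2:132781392-132781691, + strand: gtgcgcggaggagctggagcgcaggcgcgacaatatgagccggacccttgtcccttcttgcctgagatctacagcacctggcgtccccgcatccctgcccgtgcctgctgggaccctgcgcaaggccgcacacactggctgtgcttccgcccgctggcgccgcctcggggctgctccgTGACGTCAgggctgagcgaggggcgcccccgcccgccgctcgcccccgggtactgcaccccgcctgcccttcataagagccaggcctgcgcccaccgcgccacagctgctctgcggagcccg
Mobp, chr9:120149492-120149791, + strand: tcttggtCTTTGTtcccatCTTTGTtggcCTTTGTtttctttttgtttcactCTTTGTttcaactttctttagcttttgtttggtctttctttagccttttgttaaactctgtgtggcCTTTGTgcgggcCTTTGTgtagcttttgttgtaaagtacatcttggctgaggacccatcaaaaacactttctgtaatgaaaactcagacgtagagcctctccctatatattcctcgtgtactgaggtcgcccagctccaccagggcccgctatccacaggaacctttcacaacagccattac
TATNCAT was present in 8.84% of the 32851 promoters of this length in the table and in 1 of the 6 hormone genes with an entry, Prl, which had 2 matches. TGACGTCA was present in 1.79% of promoters and in 3 of 12 genes for prohormone processing and granule proteins (Chgb, Scg2 and Pcsk1). ACAAAG was present in 18.7% of promoters and in 3 of 9 oligodendrocyte genes (Cnp, Mag and Mobp). Mobp had 6 matches, all on the opposite strand, and it was the 1 promoter of the 32851 with at least 6.

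Of 19600 genes tested across the 12 GFP-negative libraries of the series, 1077 (5.49%) were called higher in the WT cerebellum and 640 (3.27%) higher in the WT anterior pituitary. Together these are 8.76% of the genes. The counts depended on the processing: an offset for effective gene length gave 638 and 478, and DESeq2 gave 1805 and 1231. The threshold for a call was a Benjamini-Hochberg adjusted p of 0.05 in edgeR's quasi-likelihood test, with a fold change of at least 2. Log2 fold changes are given as cerebellum minus anterior pituitary, so positive values are higher in the cerebellum, and their median over all genes was 0.00. Protein-coding genes made up 1053 of the calls for the cerebellum and 594 of those for the anterior pituitary. Levels are in TPM, which is scaled for transcript length, and are given for replicate 1 and then replicate 2. In a bulk library, fewer cells of a type and less RNA per cell cannot be told apart.

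**Figure D1:**
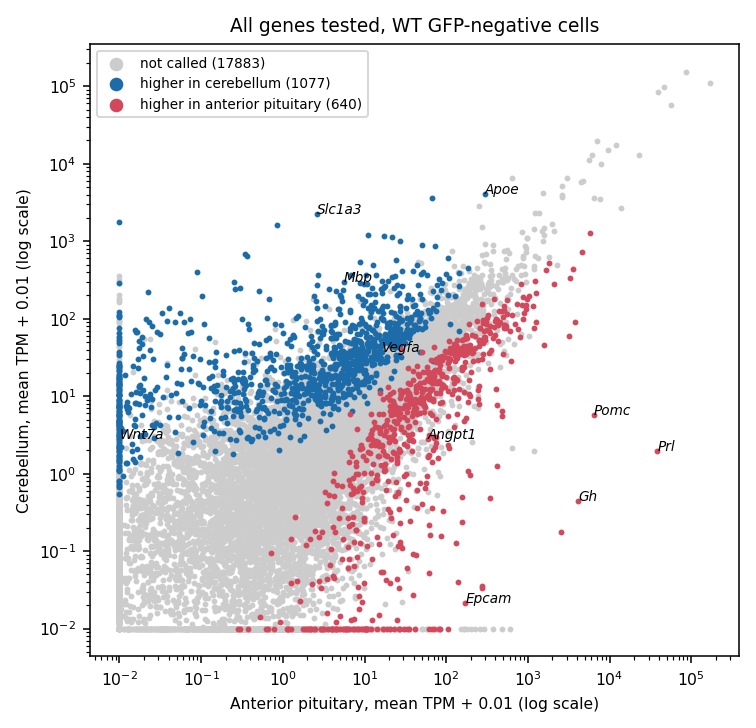
Mean TPM + 0.01 of each gene tested in the anterior pituitary (x axis) and cerebellum (y axis) GFP-negative libraries of WT mice, both on log scales, with 1 point per gene and 2 libraries per mean. The 1077 genes called higher in the cerebellum lie above the diagonal and the 640 called higher in the anterior pituitary below it, with Prl and Slc1a3 far out on opposite sides.

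TPM shares were not alike across the libraries. Nuclear protein-coding genes held 37.1% and 21.7% of TPM in the cerebellum libraries and 35.7% and 41.9% in the anterior pituitary libraries, and mitochondrial genes 27.8%, 51.7%, 21% and 26.5% in the same order. TPM of nuclear genes in cerebellum replicate 2 are thus shares of a smaller nuclear total, whereas the fitted fold changes use normalized read counts. Replicates correlated at 0.870 (cerebellum) and 0.836 (anterior pituitary) across genes on log counts, against 0.696 to 0.721 between the tissues. Endothelial genes were near their floor in all 4 libraries: Pecam1 was at 1.42 and 1.5 TPM in the cerebellum and 1.26 and 0.151 TPM in the anterior pituitary, compared with 247 to 338 TPM in GFP-positive cells. None of the 10 endothelial genes was called by edgeR or DESeq2, and 0 had an unadjusted p under 0.05, although Egfl7 was at 23.3 TPM in 1 anterior pituitary library.

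The anterior pituitary libraries carried the hormones of all 5 endocrine lineages, and all 7 hormone genes were called higher there. Their summed TPM was 43673 and 60387 in the anterior pituitary and 11.8 and 4.70 in the cerebellum, which is 12.2% and 14.4% of the nuclear protein-coding TPM of the pituitary libraries. Prolactin led. Prl was at 31239 and 45324 TPM in the anterior pituitary and 2.72 and 1.14 TPM in the cerebellum (log2 fold change -14.30 ± 1.25 SE, adjusted p = 4.2e-05). It made up 71.5% and 75.1% of hormone TPM. Pomc, the precursor of ACTH, was at 6188 and 6604 TPM in the anterior pituitary against 8.32 and 3.01 TPM in the cerebellum. In WT posterior pituitary GFP-negative cells Pomc was higher, at 53738 and 55689 TPM. Which cells held the Pomc RNA of the anterior pituitary libraries was not tested. Gh, growth hormone, was at 3600.2 and 4640 TPM against 0.397 and 0.462 TPM. Cga, the alpha subunit shared by TSH, LH and FSH, was at 2085 and 3008 TPM against 0.297 and 0.0408 TPM. For these genes both pituitary libraries lie 2 or more orders of magnitude above both cerebellum libraries. The beta subunits of TSH, FSH and LH were lower in level: Tshb was at 240.3 and 306 TPM, Fshb at 226 and 318 TPM and Lhb at 94.1 and 188 TPM in the anterior pituitary. Each was under 0.1 TPM in both cerebellum libraries.

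Of 16 transcription factors of pituitary lineages, 14 were tested and 13 were called higher in the anterior pituitary. The median log2 fold change was -12.37, or -8.99 with the 9 genes that had no reads in the cerebellum set to the bound that 3 reads over the group allow. Pou1f1, the POU factor of lactotrophs, somatotrophs and thyrotrophs, was at 123 and 192 TPM in the anterior pituitary and 0.0850 and 0.374 TPM in the cerebellum (log2 fold change -8.34 ± 1.18, adjusted p = 0.00063). Eya1, a transcriptional coactivator, was at 29.5 and 38.1 TPM and was also present in the cerebellum, at 3.43 and 4.59 TPM. It was called (adjusted p = 0.024) but lost the call in 5 of 15 alternatives, among them without cerebellum replicate 1 and without either pituitary replicate. Lhx4 and Hesx1 had no reads in any of these libraries.

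The machinery that makes and stores peptide hormones was also higher in the anterior pituitary. Of 14 genes, 11 were called higher there, with a median log2 fold change of -3.29. Chgb, a granin that packs secretory granules, was at 3370 and 4257 TPM in the anterior pituitary and 119.8 and 61.3 TPM in the cerebellum (log2 fold change -5.09 ± 0.45, adjusted p = 2.9e-05). Scg2, another granin, was at 1442 and 1695 TPM against 63.8 and 26.6 TPM. Scg5, the chaperone of the prohormone convertase PC2, was at 1109 and 1246 TPM against 91.0 and 61.9 TPM. For these 3 genes both pituitary libraries lie above both cerebellum libraries. Cpe, the carboxypeptidase that trims prohormones, was less uneven, at 1542 and 1792 TPM against 494 and 358 TPM (log2 fold change -1.81 ± 0.39, adjusted p = 0.011). Scg3, Vgf and Cadps were the 3 members not called. Scg3, a granin that anchors granule cargo, was at 1038 and 342 TPM in the cerebellum and 302 and 312 TPM in the anterior pituitary, which is a log2 fold change of 1.19 ± 0.42 (adjusted p = 0.12).

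Receptors through which the hypothalamus and peripheral hormones act on the gland were mixed. Of 16 tested, 5 were called higher in the anterior pituitary (Gnrhr, Drd2, Avpr1b and Esr1 among them) and 2 higher in the cerebellum (Nr3c1 and Adcyap1r1). The median log2 fold change was -3.60, or -3.29 with genes at 0 reads in 1 tissue at their bounds. Esr1, estrogen receptor alpha, was at 44.2 and 42.1 TPM in the anterior pituitary and 0 and 0.156 TPM in the cerebellum. Gnrhr, the GnRH receptor of gonadotrophs, was at 17.5 and 35.1 TPM with no reads in the cerebellum, at least 899-fold higher. Drd2, through which dopamine restrains prolactin release, was at 20.7 and 29.8 TPM against 0 and 0.00608 TPM. Thrb, a thyroid hormone receptor, was at 22.4 and 4.66 TPM in the cerebellum and 25.4 and 35.5 TPM in the anterior pituitary (adjusted p = 0.073). Adcyap1r1, the PACAP receptor, went the other way, at 50.6 and 19.3 TPM in the cerebellum and 6.12 and 5.95 TPM in the anterior pituitary (log2 fold change 2.87 ± 0.44, adjusted p = 0.0011). Nr3c1, the glucocorticoid receptor, was at 22.2 and 12.9 TPM against 7.96 and 15.8 TPM, so its libraries overlap in TPM, and its call (adjusted p = 0.023) was lost in 4 of 15 alternatives, among them without cerebellum replicate 1 and without either pituitary replicate. Ghrhr and Crhr1, receptors for the releasing hormones of somatotrophs and corticotrophs, were low in the pituitary, at 1.36 and 0.632 TPM and 4.07 and 1.58 TPM, and were not called.

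Glial transcripts were far higher in the cerebellum than in the anterior pituitary. All 13 genes of astrocytes and Bergmann glia were called higher in the cerebellum, with a median log2 fold change of 6.09, and 11 of 13 oligodendrocyte genes, with a median of 6.82. Slc1a3, the glutamate transporter GLAST of Bergmann glia, was at 3686 and 764 TPM in the cerebellum and 4.23 and 1.04 TPM in the anterior pituitary (log2 fold change 10.61 ± 0.76, adjusted p = 6.7e-06). Gja1, the gap junction protein connexin 43, was at 1673 and 588 TPM against 1.02 and 42.4 TPM. Atp1b2, the glial beta subunit of the sodium pump, was at 1450 and 537 TPM against 19.3 and 35.5 TPM. Aldoc, aldolase C, was at 1330 and 446 TPM against 46.6 and 54.4 TPM. These 4 genes were all higher in cerebellum replicate 1 than in replicate 2, and both lay above the pituitary libraries. Gdf10, a BMP-family ligand of Bergmann glia, was at 184 and 50.5 TPM against 0.0119 and 0.0780 TPM, and S100b at 177 and 63.6 TPM against 0 and 0.0457 TPM.

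By TPM, 10 of the 13 oligodendrocyte genes were higher in cerebellum replicate 2 than in replicate 1. All 13 astrocyte and Bergmann glia genes were higher in replicate 1 by TPM. Nuclear protein-coding genes held 37.1% and 21.7% of TPM in these replicates. By read counts Gfap (969 and 1243), Cnp (25277 and 33213) and Sox10 (706 and 1186) were higher in replicate 2. Pdgfra was higher in replicate 1 by read counts (1390 and 1260), and the other members kept their side. Mbp, myelin basic protein, was at 209 and 379 TPM in the cerebellum and 4.68 and 6.37 TPM in the anterior pituitary, and Cldn11, the claudin of myelin sheaths, at 110.1 and 369 TPM against 4.47 and 2.94 TPM. Cnp, a myelin enzyme, was nearly level by TPM in the cerebellum, at 253 and 232 TPM, against 1.78 and 30.4 TPM. Summed over the list, oligodendrocyte genes were at 1545 and 3984 TPM in the cerebellum and 22.1 and 46.4 TPM in the anterior pituitary. Astrocyte and Bergmann glia genes summed to 10629 and 3189 TPM against 190.3 and 269.6 TPM. Pdgfra and Cspg4, markers of oligodendrocyte precursors, were the 2 members not called, and Pdgfra was at 3.52 and 4.84 TPM in the cerebellum and 5.50 and 3.51 TPM in the anterior pituitary.

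**Figure D2:**
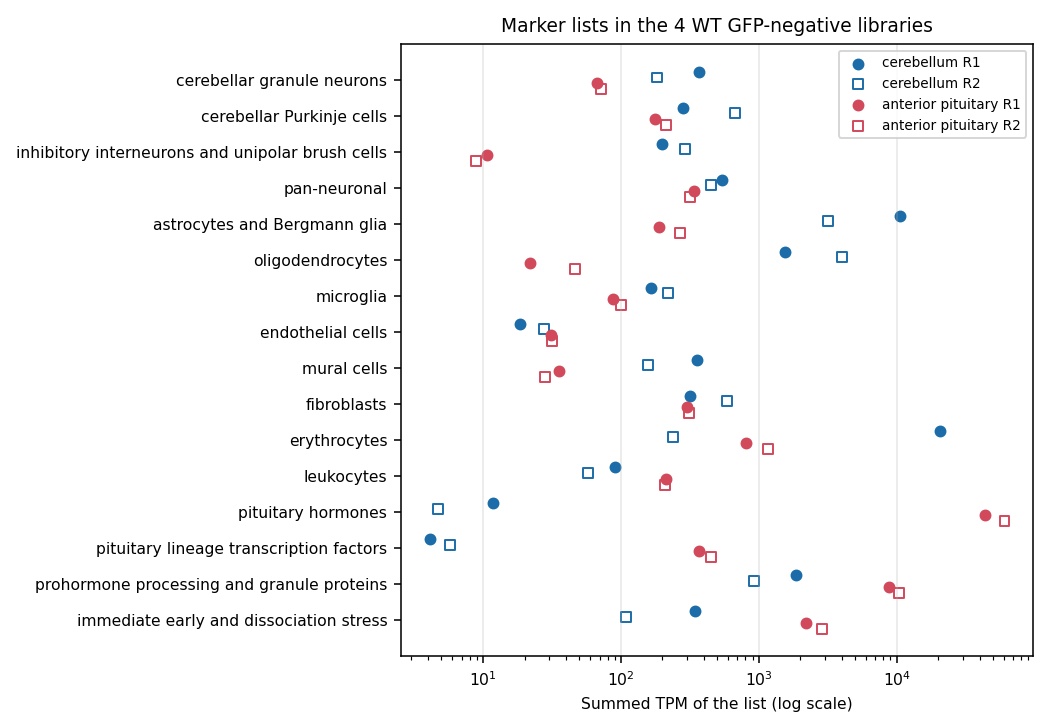
Summed TPM of each marker list (log scale) in the 4 WT GFP-negative libraries, with cerebellum in blue, anterior pituitary in red, replicate 1 as filled circles and replicate 2 as open squares. Glial lists sit far to the right for the cerebellum (10629 and 3189 TPM for astrocytes and Bergmann glia), hormones for the anterior pituitary (43673 and 60387 TPM), and erythrocyte genes stand apart in cerebellum replicate 1 (20722 TPM).

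Neuronal lists were called in part. Granule neuron genes summed to 371 and 184 TPM in the cerebellum and 66.9 and 71.6 TPM in the anterior pituitary, and 8 of 12 were called higher in the cerebellum (median log2 fold change 4.80). Gabra6, the GABA-A receptor subunit that marks granule neurons, was at 51.3 and 15.0 TPM in the cerebellum and 0 and 0.0183 TPM in the anterior pituitary (log2 fold change 11.87 ± 0.95, adjusted p = 2.4e-05). Zic1 and Zic2, zinc-finger factors of the granule lineage, were at 66.0 and 29.8 TPM and 38.2 and 24.3 TPM, and under 1 TPM in the pituitary. Zic2 was as high in the GFP-positive cells of the cerebellum, at 38.8 and 31.2 TPM, where Zic1 was at 5.60 and 4.96 TPM. Etv1 was at 68.0 and 54.9 TPM against 25.5 and 33.3 TPM, and its call (adjusted p = 0.045) was lost in 8 of 15 alternatives, among them without cerebellum replicate 2 and without either pituitary replicate.

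Of 12 Purkinje cell genes, 7 were called higher in the cerebellum (median log2 fold change 3.91), and 4 without cerebellum replicate 2. Pvalb, parvalbumin, was at 44.4 and 155 TPM against 5.15 and 0.545 TPM (log2 fold change 5.15 ± 1.20, adjusted p = 0.019), and its call was lost without cerebellum replicate 2 and with the 4 libraries fitted alone. Itpr1, the IP3 receptor, was at 32.8 and 185 TPM against 23.9 and 32.2 TPM (adjusted p = 0.062). Pcp4, which Purkinje cells share with other excitable cells, was at 26.1 and 126 TPM against 70.1 and 132 TPM, so the libraries of the tissues overlap. Calb1, the calcium-binding protein calbindin and a usual Purkinje marker, was at 7.44 and 5.82 TPM in the cerebellum and 58.5 and 36.5 TPM in the anterior pituitary (log2 fold change -2.08 ± 0.69, adjusted p = 0.089), and it was called higher in the anterior pituitary in mice with stabilized endothelial beta-catenin. The Purkinje list as a whole summed to 281 and 671 TPM in the cerebellum and 176 and 212 TPM in the anterior pituitary.

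Genes of inhibitory interneurons and unipolar brush cells were called higher in the cerebellum for 6 of 10 members. Gad1, which makes GABA, was at 37.0 and 95.9 TPM against 0 and 0.0131 TPM. Kit, a receptor tyrosine kinase of molecular layer interneurons, was at 35.9 and 70.8 TPM against 7.59 and 8.68 TPM. The 4 members not called (Slc6a5, Lmx1a, Grm2 and Pax2) were under 2.5 TPM in every library. The median of the list was 10.48, or 7.29 with the 4 members that had no pituitary reads at their bounds.

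Genes shared by neurons and other secretory cells were also called in part, and the lists were not tested against each other. Of 12 pan-neuronal genes, 4 were called higher in the cerebellum (Stmn2, Rbfox3, Elavl4 and Gap43), and the median log2 fold change was 1.20. In mice with stabilized endothelial beta-catenin 7 were called higher in the cerebellum and 1 higher in the anterior pituitary, with a median of 2.32. The call of Gap43 (adjusted p = 0.034) was lost in 5 of 15 alternatives, among them without cerebellum replicate 2 and without either pituitary replicate. Snap25, a SNARE protein of regulated exocytosis, was at 226 and 192 TPM in the cerebellum and 108 and 134 TPM in the anterior pituitary (log2 fold change 0.86 ± 0.36, adjusted p = 0.19). Map2 was at 137 and 81.8 TPM against 154 and 102 TPM, and Syn1 at 36.1 and 25.3 TPM against 28.0 and 36.0 TPM, and the libraries of the tissues overlap for both. Among 16 genes of vesicle exocytosis, 2 were called higher in the cerebellum and 3 higher in the anterior pituitary, with a median of -0.54. Cplx1, complexin 1, was at 14.6 and 35.3 TPM in the cerebellum with no reads in the anterior pituitary. Rab3b, a vesicle GTPase, was at 129.8 and 116 TPM in the anterior pituitary and 5.43 and 2.53 TPM in the cerebellum (log2 fold change -4.79 ± 0.89, adjusted p = 0.0043), and Syt4 and Rab27a were the other 2 called higher there. Vamp2, the vesicle SNARE synaptobrevin, was at 119 and 94.8 TPM in the cerebellum and 114 and 143 TPM in the anterior pituitary and was not called.

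Receptors for glutamate and GABA were called higher in the cerebellum for 10 of 27 subunits and higher in the anterior pituitary for 1, with a median log2 fold change of 3.36. Gria1 and Gria4, AMPA receptor subunits that Bergmann glia also express, were at 445 and 68.0 TPM and 402 and 129 TPM in the cerebellum and 1.66 and 33.1 TPM and 20.3 and 15.4 TPM in the anterior pituitary. Grin1, the obligate NMDA receptor subunit, was at 81.8 and 78.9 TPM against 17.5 and 83.3 TPM (adjusted p = 0.21). Of 10 calcium channel pore subunits, Cacna1a and Cacna1e were called higher in the cerebellum, and the median log2 fold change was 0.43. Cacna1a, the P/Q-type channel, was at 12.1 and 12.4 TPM against 5.76 and 6.72 TPM (adjusted p = 0.047), a call lost in 7 of 15 alternatives, among them without cerebellum replicate 2 and without either pituitary replicate. Cacna1d, an L-type channel, was at 9.24 and 4.65 TPM against 21.6 and 7.35 TPM and was not called.

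**Figure D3:**
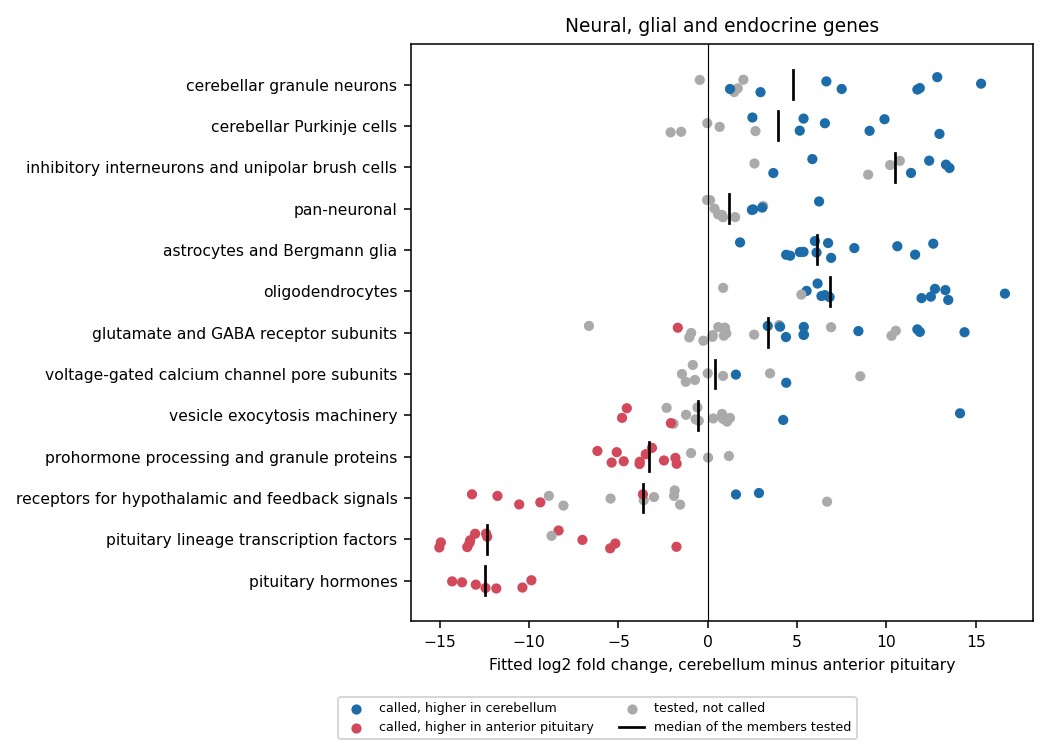
Fitted log2 fold change (cerebellum minus anterior pituitary) of each member tested of 13 lists, with blue and red for genes called higher in the cerebellum or anterior pituitary, grey for genes not called, and a black bar at the median of the list. Glial lists lie wholly to the right of 0 and hormones wholly to the left, and genes of vesicle exocytosis lie on both sides with a median of -0.54.

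Apoe, Sparcl1, Slc1a3, Ttr, Ptgds, Sept4, Gja1, Atp1b2 and Aldoc were among the 10 most abundant protein-coding genes called higher in the cerebellum. Apoe, the lipid carrier secreted by astrocytes, was at 6337 and 1794 TPM in the cerebellum and 285 and 309 TPM in the anterior pituitary. Sparcl1, a secreted matrix protein of astrocytes, was at 5586 and 1681 TPM against 64.6 and 70.3 TPM. Ptgds, prostaglandin D synthase, was at 1114 and 1271 TPM against 15.1 and 7.05 TPM, and Sept4, a septin, at 1815 and 537 TPM against 18.7 and 15.8 TPM. Ttr, the thyroid hormone carrier made by choroid plexus epithelium, was different. It was at 0.0397 and 3514 TPM in the cerebellum and listed at 0 in both pituitary libraries, so its level rests on cerebellum replicate 2, and its call (adjusted p = 0.040) was lost without that replicate and with a minimum of 10 TPM. A list of 8 choroid plexus markers, Ttr among them, was drawn up after this value was seen. All 8 were higher in cerebellum replicate 2 than in replicate 1, with sums of 3777 and 2.64 TPM, against 37.7 and 30.1 TPM in the anterior pituitary, where 3 of the 8 were at 0 in each library. The part of choroid plexus RNA in other differences was not tested.

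The 5 protein-coding genes called higher in the cerebellum with the highest fitted fold change among those at 10 TPM or more in both replicates were Mobp, Cmtm5, Ermn, Efhd1 and Cnksr2, and none had reads in the anterior pituitary. Mobp, a myelin protein whose promoter is printed above, was at 60.2 and 162 TPM in the cerebellum, at least 10583-fold higher. Cmtm5 was at 171 and 70.1 TPM and at least 3824-fold higher. Ermn, an oligodendrocyte cytoskeletal protein, was at 10.2 and 35.7 TPM and at least 3208-fold higher. The bounds for Efhd1 and Cnksr2, a scaffold protein of neurons, were 2836-fold and 2624-fold.

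The 10 most abundant genes called higher in the anterior pituitary were Prl, Pomc, Eef1a1, Gh, Chgb, Gnas, Nnat, Cga, Tpt1 and Cpe. Gnas, the locus of the stimulatory G protein through which the GHRH and CRH receptors raise cyclic AMP, was at 3137 and 3482 TPM in the anterior pituitary and 366 and 303 TPM in the cerebellum (log2 fold change -3.12 ± 0.41, adjusted p = 0.0004). Nnat, neuronatin, was at 2988 and 3402 TPM against 67.8 and 51.1 TPM. The translation genes Eef1a1 and Tpt1 were at 5492 and 6124 TPM and 1851 and 1752 TPM, against 1321 and 1197 TPM and 546 and 488 TPM. The call of Tpt1 (adjusted p = 0.043) was lost with the offset for gene length and without cerebellum replicate 1 or pituitary replicate 1. Six6, Six3, Prl and Asic4 were among the 5 with the highest fitted fold change at 10 TPM or more in both replicates. Six6 and Six3, homeodomain factors of the eye and pituitary, were at 25.9 and 20.4 TPM and 29.1 and 53.2 TPM with no cerebellum reads, at least 3014-fold and 2157-fold higher. Asic4, a proton-gated channel subunit, was at 33.2 and 32.2 TPM and at least 1578-fold higher.

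Immediate early and stress genes, which rise with activity and with dissociation, were called higher in the anterior pituitary for 10 of 11 members, with a median log2 fold change of -3.85, and the other, Atf3, was at -1.91 (adjusted p = 0.16). Fos was at 767 and 964 TPM in the anterior pituitary and 158 and 41.3 TPM in the cerebellum (log2 fold change -3.27 ± 0.67, adjusted p = 0.0077). Egr1 was at 286 and 392 TPM against 34.4 and 10.4 TPM, and Nr4a1 at 387 and 428 TPM against 16.7 and 7.92 TPM. Hspa1b, an inducible heat shock protein, was at 189 and 295 TPM against 13.5 and 4.84 TPM. For each of these the pituitary libraries lie above both cerebellum libraries, and their part in other differences was not tested.

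Markers of the other cell types that the GFP-negative gate could hold were also examined. Counts of calls in this paragraph and the next stand beside the 8.76% of all genes called in either direction. Of 12 microglial genes, P2ry12 was the 1 called (24.2 and 45.4 TPM in the cerebellum, 0.105 and 0 TPM in the anterior pituitary), and the list summed to 166 and 219 TPM against 87.2 and 100.9 TPM. Of 10 mural cell genes, 3 were called higher in the cerebellum (Rgs5, Acta2 and Myh11), and the call of Rgs5 was lost in 4 of 15 alternatives, among them without cerebellum replicate 1 or pituitary replicate 2. Acta2, smooth muscle actin, was at 41.1 and 19.0 TPM against 0 and 0.0134 TPM. Fibroblast genes had 1 call each way. Igf2 was at 49.3 and 128 TPM in the cerebellum and 9.36 and 8.75 TPM in the anterior pituitary, and Dcn, decorin, at 21 and 25.3 TPM against 138 and 173 TPM, although the call of Dcn was lost in 4 of 15 alternatives, among them without cerebellum replicate 1 or pituitary replicate 1. Igf2 is also made by choroid plexus, whose 8 markers summed to 2.64 TPM in cerebellum replicate 1 and 3777 TPM in replicate 2. The part of choroid plexus RNA in the Igf2 call was not tested. None of 9 leukocyte genes tested was called by edgeR (median log2 fold change -0.54), and 3 had an unadjusted p under 0.05. Cd74 and H2-Aa, which present antigen, were at 110.4 and 137 TPM and 64.3 and 49.9 TPM in the anterior pituitary against 33.5 and 8.75 TPM and 11.5 and 2.33 TPM in the cerebellum, with adjusted p = 0.085 and 0.12, and DESeq2 called both.

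Red cell genes differed between the cerebellum replicates more than between the tissues. Hbb-bs, a beta globin, was at 12927 and 159 TPM in the cerebellum and 388 and 901 TPM in the anterior pituitary, and none of the 5 red cell genes was called by edgeR, while 3 had an unadjusted p under 0.05 and DESeq2 called 1. Of 12 genes of pituitary stem and folliculostellate cells, Epcam, an epithelial adhesion molecule, was called higher in the anterior pituitary, at 154 and 187 TPM against 0.0122 and 0.0106 TPM (log2 fold change -13.59 ± 0.51, adjusted p = 2.5e-08). Another 5 members were called higher in the cerebellum (Sox2, Sox9, S100b, Aldh1a1 and Cd9), and astrocytes express Sox2, Sox9 and S100b as well. S100b, a usual marker of folliculostellate cells, had 0 and 0.0457 TPM in the anterior pituitary. Anxa1, at 136 and 28.0 TPM in the anterior pituitary against 2.89 and 8.35 TPM, was not called. Of 7 genes of pituicytes and the posterior lobe, Rax, Avp and Oxt were listed at 0 in all 4 libraries, and Vim, also an astrocyte gene, was the member called (606 and 130 TPM in the cerebellum, 15.4 and 12.4 TPM in the anterior pituitary). Pax7, a factor of the intermediate lobe, was at 1.66 and 0.866 TPM in the anterior pituitary and 36.7 and 50.4 TPM in posterior pituitary GFP-negative cells.

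Wnt ligands, which signal through Frizzled receptors and LRP5 or LRP6 to beta-catenin in nearby ECs, were low in both tissues. Of 19 ligands, 12 were tested and 9 reached 1 TPM in at least 1 library, and 4 (Wnt3, Wnt5a, Wnt7a and Wnt7b) were called higher in the cerebellum. None was called higher in the anterior pituitary by edgeR or DESeq2, and 0 had an unadjusted p under 0.05 in that direction. Wnt7a (chr6:91363981-91411363, GRCm38), a principal barrier ligand of the brain, was at 1.85 and 3.74 TPM in the cerebellum with no reads in the anterior pituitary, at least 316-fold higher (adjusted p = 0.030). Wnt7b, which acts with it, was at 5.44 and 1.10 TPM against 0.00961 and 0.0115 TPM, a ratio of 730 with a 95% counting interval of 202 to 6038 (adjusted p = 0.024). Wnt3 was at 8.47 and 2.43 TPM against 0.0746 and 0.0103 TPM (log2 fold change 6.95 ± 1.92, adjusted p = 0.044). Wnt5a was at 3.55 and 2.27 TPM against 0.334 and 0.371 TPM (log2 fold change 5.07 ± 1.15 on reads, adjusted p = 0.014). With the offset for effective gene length the log2 fold change of Wnt5a was 3.13 (adjusted p = 0.21), and the call was lost. For these 4 ligands the tissues do not overlap. Levels in other sorted cells differed by ligand: Wnt7a, Wnt7b and Wnt3 were at 0.0583 TPM or less in the GFP-positive cells of the cerebellum, whereas Wnt5a was at 10.2 and 7.52 TPM there.

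The other Wnt ligands that reached 1 TPM were not called by edgeR in the main fit. Wnt6 was at 10.2 and 2.57 TPM in the cerebellum with no reads in the anterior pituitary (at least 321-fold higher, adjusted p = 0.099), and Wnt10a at 5.59 and 0.552 TPM against 0.131 and 0.0263 TPM (adjusted p = 0.38). Wnt6 gained a call in 3 of 15 alternatives: no count filter, DESeq2 and the 4 libraries fitted alone. DESeq2 called 5 Wnt ligands higher in the cerebellum. Wnt4 was at 0.508 and 1.17 TPM against 0.539 and 1.49 TPM. Wnt5b and Wnt9a had their highest values in the anterior pituitary, at 2.65 and 1.63 TPM and 2.64 and 0.645 TPM, against 1.45 and 0.389 TPM and 0.775 and 0.219 TPM. Wnt5b reached 47.9 and 28.7 TPM in posterior pituitary GFP-negative cells, far above either tissue compared here. The median log2 fold change of the 12 ligands was 7.08, or 4.69 with the 5 that had no reads in the anterior pituitary at their bounds. The calls were not stable when a library was left out: the number of Wnt ligands called higher in the cerebellum fell to 2 without cerebellum replicate 1, to 1 without anterior pituitary replicate 1 and to 0 without anterior pituitary replicate 2. It was 2 with the offset for effective gene length, where the calls of Wnt5a and Wnt7a were lost, 1 with all 24 sorted libraries fitted, where those of Wnt3, Wnt7a and Wnt7b were lost, and 0 with a minimum of 10 TPM.

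Norrin (Ndp), the non-Wnt ligand of Frizzled4, was at 15.9 and 4.41 TPM in the cerebellum and 0 and 2.15 TPM in the anterior pituitary, and was not called (log2 fold change 3.74 ± 2.28, adjusted p = 0.38). Among R-spondins, which strengthen Wnt signals, Rspo4 was at 1.33 and 2.15 TPM in the anterior pituitary with no cerebellum reads (adjusted p = 0.12), and Rspo3 at 0 and 1.85 TPM against 0 and 0.354 TPM. Of 14 secreted Wnt inhibitors, 11 were tested and Wif1 and Dkk3 were called higher in the cerebellum. Wif1, which binds Wnt proteins, was at 17.4 and 13.3 TPM with no reads in the anterior pituitary, at least 657-fold higher (adjusted p = 0.015). Dkk3 was at 39.3 and 11.9 TPM against 3.66 and 7.66 TPM, and its call was lost in 4 of 15 alternatives, among them without cerebellum replicate 1 or pituitary replicate 1. Sfrp1 was at 6.82 and 5.4 TPM against 0.337 and 0.0419 TPM (adjusted p = 0.077). Sostdc1, which is also 1 of the 8 choroid plexus markers above, was at 0.118 and 20.8 TPM in the cerebellum with no reads in the anterior pituitary and was not called.

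Of 21 Wnt receptors and co-receptors, Fzd1 was the 1 called by edgeR, beside 8.76% of all genes called in either direction. DESeq2 called 5 higher in the cerebellum and 1 higher in the anterior pituitary. Fzd1 was at 71.7 and 22.6 TPM in the cerebellum and 2.31 and 1.90 TPM in the anterior pituitary (log2 fold change 4.40 ± 0.54, adjusted p = 0.00023). Lrp6 was at 50.9 and 23.2 TPM against 53.3 and 27.8 TPM, and Tspan12, the Norrin co-receptor, at 46.6 and 22.3 TPM against 21.9 and 65.7 TPM, with the libraries overlapping for both. Ryk was at 23.8 and 8.27 TPM against 7.19 and 5.96 TPM. Of 17 pathway effectors and targets, 3 were called higher in the cerebellum (Apc, Znrf3 and Porcn). Porcn, the enzyme that lipidates Wnt proteins for release, was at 9.88 and 8.62 TPM against 0.330 and 0.346 TPM (log2 fold change 5.56 ± 1.5, adjusted p = 0.036). The call of Porcn was not followed through the alternatives. Its partner in Wnt release, Wls, was at 16 and 25.2 TPM against 27 and 37.8 TPM. Apc, of the beta-catenin destruction complex, was at 146 and 61.1 TPM against 37.3 and 28.0 TPM, a call lost without anterior pituitary replicate 2 and with the offset for effective gene length. Ctnnb1, beta-catenin itself, was at 89.3 and 139 TPM against 158 and 217 TPM and was not called (adjusted p = 0.41). Axin1 was at 3.70 and 2.57 TPM against 67.0 and 64.7 TPM, although its log2 fold change on reads was -1.42 ± 0.56 (adjusted p = 0.16). With the offset for effective gene length it was called (adjusted p = 0.0078).

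**Figure D4:**
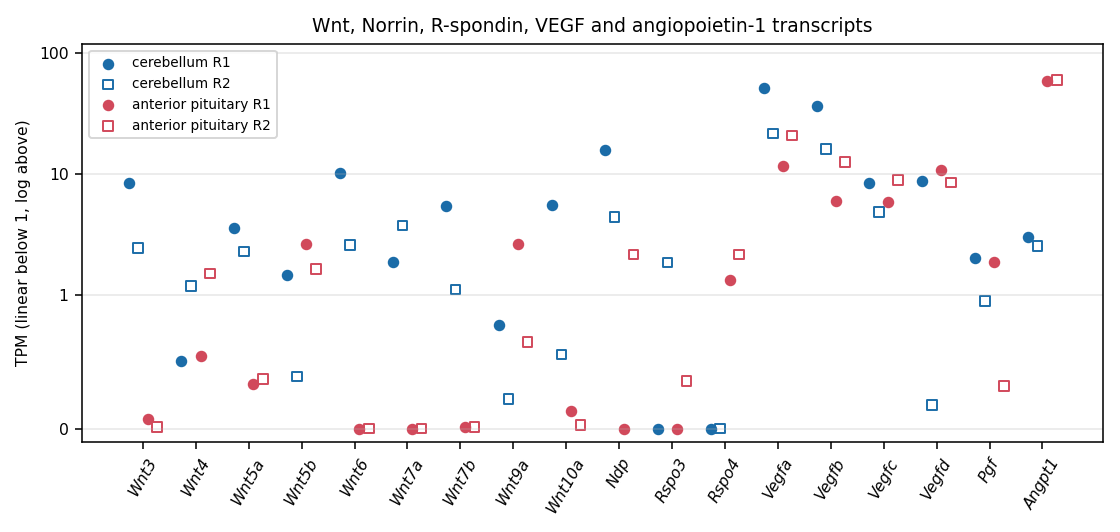
TPM of Wnt ligands, Norrin (Ndp), R-spondins, VEGF family ligands and Angpt1 in the 4 WT GFP-negative libraries (linear below 1 TPM, log above), with 1 point per library, blue for cerebellum and red for anterior pituitary. Wnt7a is at 1.85 and 3.74 TPM in the cerebellum and 0 in both pituitary libraries, the Vegfa libraries nearly touch (21.7 and 20.9 TPM), and Angpt1 is at 59.5 and 59.96 TPM in the anterior pituitary.

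VEGF family ligands were expressed in both tissues. Vegfa (chr17:46016993-46032369, GRCm38), the main ligand of VEGFR2, was the 1 of 5 called. It was at 51.6 and 21.7 TPM in the cerebellum and 11.6 and 20.9 TPM in the anterior pituitary (log2 fold change 1.73 ± 0.49, adjusted p = 0.047). The groups are separated by less than 1 TPM, and the call was lost in 7 of 15 alternatives, among them the replicate block, without cerebellum replicate 1 and without either pituitary replicate. Its adjusted p ranged from 0.011 to 0.39 over all alternatives. Vegfb, a ligand of VEGFR1, was at 36.7 and 16.1 TPM against 5.97 and 12.6 TPM (adjusted p = 0.39). Vegfc and Vegfd, ligands of VEGFR3, were at 8.46 and 4.84 TPM and 8.71 and 0.175 TPM in the cerebellum against 5.90 and 8.95 TPM and 10.9 and 8.50 TPM in the anterior pituitary, and neither was called. Pgf was at 2.03 and 0.952 TPM against 1.87 and 0.319 TPM. In the GFP-positive cells Vegfa was lower than in the parenchyma of the same tissue, at 1.03 and 0.0114 TPM in the cerebellum and 5.37 and 13.7 TPM in the anterior pituitary, although the latter is above 1 parenchymal library. Vegfc was higher there, at 28.1 and 12.4 TPM and 32.3 and 29.5 TPM.

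The transcripts of Vegfa were split unevenly by the quantifier. Vegfa-201, which encodes 146 residues, held 27.3% and 55.2% of the TPM of the gene in the cerebellum and 50.5% and 50.9% in the anterior pituitary. Vegfa-204, which encodes 208 residues, held 0% and 21.7% in the cerebellum and 0% and 34.1% in the anterior pituitary. Vegfa-212, which encodes 368 residues, held 49.5% in cerebellum replicate 1 and 0% in the other 3 libraries. Vegfa-202, of the same coding length, held 21% and 10.6% in the cerebellum and 0% and 5.46% in the anterior pituitary, and Vegfa-211, which encodes 324 residues, held 36.6% in anterior pituitary replicate 1 and 0% in the other 3 libraries. The VEGF receptors Kdr and Flt1 were under 3 TPM in all 4 libraries, and Nrp1 was at 3.79 and 4.44 TPM in the cerebellum and 5.10 and 3.60 TPM in the anterior pituitary. None of the 5 VEGF receptors and neuropilins was called by edgeR or DESeq2, and 0 had an unadjusted p under 0.05.

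Angpt1, angiopoietin-1, the agonist of the Tie2 receptor on ECs, was called higher in the anterior pituitary. It was at 59.5 and 59.96 TPM there and 3.03 and 2.53 TPM in the cerebellum (log2 fold change -4.21 ± 0.77, adjusted p = 0.0039). In the GFP-positive cells it was at 2.75 and 0.963 TPM in the anterior pituitary. Angpt2, its antagonist in many settings, was at 15.8 and 4.11 TPM in the cerebellum and 1.05 and 0.917 TPM in the anterior pituitary (adjusted p = 0.27). Pdgfa was at 25.8 and 16.6 TPM against 11.3 and 11.0 TPM, and Pdgfd at 20.4 and 11.6 TPM against 2.34 and 0.287 TPM. Neither was called by edgeR in the main fit. Pdgfd (adjusted p = 0.063) gained a call in 7 of 15 alternatives, among them DESeq2, no count filter and the replicate block. Angpt1 was thus the 1 of 7 members tested that passed in the main fit, while DESeq2 called 2 higher in the cerebellum and 1 higher in the anterior pituitary.

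Other families of ligands were tested in the same way, beside the 8.76% of all genes called in either direction. In the TGF-beta, BMP and activin list, Gdf10 was the 1 of 20 tested that was called. Bmp6 was at 56.9 and 9.84 TPM in the cerebellum and 4.40 and 9.69 TPM in the anterior pituitary. Nog, the BMP antagonist noggin, was at 3.11 and 1.93 TPM against 15.0 and 16.1 TPM (adjusted p = 0.48), and Inha at 1.64 and 1.13 TPM against 3.45 and 12.4 TPM. Of 11 FGF ligands tested, Fgf11 was called higher in the cerebellum (6.77 and 5.96 TPM against 0 and 0.533 TPM), a call lost in 6 of 15 alternatives, among them without cerebellum replicate 2 or pituitary replicate 1. Fgf9 was at 19.9 and 5.98 TPM against 44.2 and 11.3 TPM. None of 7 hedgehog and Notch ligands tested was called by edgeR, while 1 had an unadjusted p under 0.05 and DESeq2 called 1, and Jag1 and Jag2 were at 5.06 TPM or less in all 4 libraries.

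Guidance and chemokine ligands gave 4 calls higher in the cerebellum (Sema3d, Ntn1, Reln and Efnb3) and 1 higher in the anterior pituitary (Slit1) among 19 tested. Reln, the extracellular signal of granule neurons, was at 38.9 and 25.4 TPM in the cerebellum and 1.39 and 2.53 TPM in the anterior pituitary (log2 fold change 4.12 ± 0.72, adjusted p = 0.0028). Efnb3, an ephrin, was at 14.2 and 13.4 TPM against 0.406 and 0.619 TPM. Slit1 was at 5.32 and 1.67 TPM in the anterior pituitary against 0 and 0.0121 TPM, a call lost in 3 of 15 alternatives (the 4 libraries fitted alone, all 24 sorted libraries fitted, and a minimum of 10 TPM), and its paralog Slit2 was at 43.7 and 35.5 TPM against 13.4 and 15.7 TPM (adjusted p = 0.13). Cxcl12 was nearly level, at 14.6 and 21.6 TPM against 17.2 and 19.0 TPM.

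Of 16 neuropeptides and growth factors tested, 3 were called higher in the cerebellum (Npy, Igf2 and Adcyap1), 2 higher in the anterior pituitary (Gal and Egf) and 11 in neither direction, with a median log2 fold change of 0.47. Npy, neuropeptide Y, was at 83.3 and 32.0 TPM in the cerebellum with no reads in the anterior pituitary, at least 791-fold higher (adjusted p = 0.0034). Gal, galanin, which lactotrophs make, was at 32.1 and 92.2 TPM in the anterior pituitary and 0 and 0.0861 TPM in the cerebellum (adjusted p = 0.0045). Egf was at 4.88 and 7.81 TPM against 0.176 and 0.0331 TPM, a call lost without cerebellum replicate 2, with all 24 sorted libraries fitted and with a minimum of 10 TPM. Nrg1 was at 11.1 and 6.73 TPM in the anterior pituitary against 0.901 and 1.48 TPM and was not called.

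**Figure D5:**
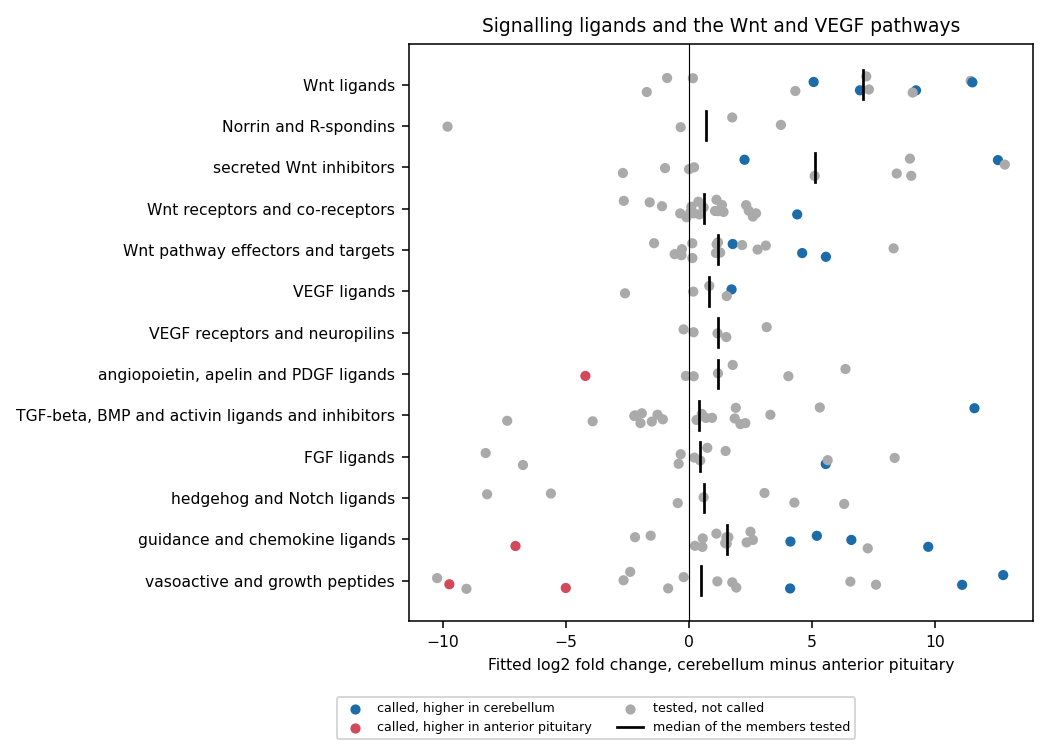
Fitted log2 fold change (cerebellum minus anterior pituitary) of each member tested of 13 signalling lists, with blue and red for genes called higher in the cerebellum or anterior pituitary, grey for genes not called, and a black bar at the median. Wnt ligands have a median of 7.08 with 4 called, and Angpt1 at -4.21 is the called member of its list.

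The same contrast in mice with stabilized endothelial beta-catenin gave 986 genes (5.03%) called higher in the cerebellum and 1188 (6.06%) higher in the anterior pituitary. With the 4 stabilized libraries fitted alone the counts were 827 and 554, so which tissue had more calls turned, and the overlaps given next rest on the fit of all 12 libraries. The median log2 fold change of all genes was -0.36 there. The tissue difference itself differed between WT and stabilized mice for 49 genes (0.25%). Of the genes called higher in the WT cerebellum, 664 were also called in the stabilized mice, which is 61.7% of the WT list and 67.3% of the stabilized list. For the anterior pituitary the overlap was 453 genes, 70.8% of the WT list and 38.1% of the stabilized list. All 7 hormones, 13 of the lineage factors and the 13 astrocyte and Bergmann glia genes were called the same way in both. The mix of hormones was not the same: Prl made up 49.5% and 40.6% of hormone TPM in the stabilized anterior pituitary, and Gh 22% and 23.8% against 8.24% and 7.68% in WT mice, a difference that was not tested. Of the 4 Wnt ligands, 3 (Wnt3, Wnt7a and Wnt7b) were called again, and Wnt5a was not, at 0.0499 and 0.416 TPM in the stabilized cerebellum. The median log2 fold change of the Wnt ligands was -1.35 in the stabilized mice, where no bounds were set for members without reads. In WT mice it was 7.08, or 4.69 with bounds. The sign of the median thus turned, as it did for 11 of the 35 lists, among them vesicle exocytosis (-0.54 in WT mice and 0.76 in stabilized mice). Wnt ligands still summed to more TPM in the stabilized cerebellum (17.6 and 33.5) than in the stabilized anterior pituitary (7.35 and 8.61). In the stabilized mice 0 Wnt ligands were called higher in the anterior pituitary. Neither Wif1 nor Dkk3 was called there (adjusted p = 0.060 and 0.97), and Sfrp5 was the secreted Wnt inhibitor called, higher in the anterior pituitary. Vegfa was not called in the stabilized mice, with levels of 18.5 and 11.0 TPM in the cerebellum and 13.4 and 21.9 TPM in the anterior pituitary. Vegfd was called higher in the anterior pituitary there, at 8.23 and 15.9 TPM with 0 in both cerebellum libraries (adjusted p = 0.0018). Angpt1 was called again, at 21.6 and 15.7 TPM in the anterior pituitary and 3.14 and 0.156 TPM in the cerebellum.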

How the data were processed

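RNA-seq libraries were made from total RNA of sorted cells (NuGEN Ovation amplification, 75-cycle single-end reads). The authors quantified transcripts with Salmon 0.10.2 against Ensembl release 92 (mm10/GRCm38), and the deposited tables give estimated counts, effective lengths and TPM per transcript. Here transcripts were summed to 49509 genes with GENCODE M21, leaving out 0.13 to 0.39% of reads that matched no gene. Estimated counts were rounded and fitted with edgeR 4.0.16 (TMM, filterByExpr, quasi-likelihood, 1 coefficient per group over 12 GFP-negative libraries). SEs are the log2 fold change divided by the square root of F. Test output was checked on simulated counts with 200 changed genes among 16019 tested: 52% of 8-fold and 16% of 4-fold changes were recovered, with 4 false calls.

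Named genes were, in each direction, the 10 most abundant nuclear protein-coding genes called whose libraries did not overlap in TPM and the 5 most changed at 10 TPM or more in both replicates, all Wnt, Norrin, R-spondin and VEGF ligands at 1 TPM or more, and the 4 most abundant members of each other list, plus members called against their list. Other genes named were chosen after their values were seen. The members and the 35 lists were chosen with earlier results of these data known. Counting intervals and the floor of 3 reads per group cover counting error only. Alternatives were RLE size factors, no count filter, DESeq2 1.42.0, a replicate block, an offset for effective length, other sets of libraries, hormone genes left out of library sizes, other call rules and leaving out each replicate. In the fit of all 24 sorted libraries, replicate 2 of the stabilized anterior pituitary GFP-positive cells was grouped by its title. Its tissue characteristic names the posterior pituitary instead. RiboTag and ATAC-seq samples were not used here. Some genes of the lists are counted but not reported here by name. Promoters are from RefSeq.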

Additional observations from a re-analysis of the deposited data

Results flagged for a closer look

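The tissue difference itself differed between WT and stabilized mice for 49 of 19600 genes (0.25%) by a test of the difference between the contrasts (edgeR, adjusted p under 0.05), and listed genes were among them. Values are WT minus stabilized log2 fold changes. Epcam gave -7.05 (adjusted p = 0.00023), and its cerebellum level was 0.0122 and 0.0106 TPM in WT mice and 1.43 and 0.845 TPM in stabilized mice. Eya1 gave 5.54 (adjusted p = 0.0064), and was at 3.43 and 4.59 TPM in the WT cerebellum and 0.0699 and 0.0449 TPM in the stabilized cerebellum. Cacna1c gave -4.02 (adjusted p = 0.036), Col3a1 5.52 (adjusted p = 0.015), Ppp1r17 5.92 (adjusted p = 0.037) and Fosb 3.49 (adjusted p = 0.033). Fosb was at 18.7 and 5.50 TPM in the WT cerebellum and 0.769 and 0.363 TPM in the stabilized cerebellum, and other differences in cell makeup between these libraries were not tested.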

How the results depend on the processing

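With 2 libraries per tissue the counts of called genes depended on the processing, while the members of the 35 lists called (89 higher in the cerebellum, 56 higher in the anterior pituitary) stayed within 1.5 times under all 15 alternatives. DESeq2 called 1805 genes higher in the WT cerebellum and 1231 higher in the WT anterior pituitary, and 1633 and 2245 in the stabilized mice. Without a count filter, 961 were higher in the WT anterior pituitary. The offset for effective gene length gave 638 for the WT cerebellum and 616 for the stabilized cerebellum. Requiring 10 TPM left 673 for the WT cerebellum, and 543 and 642 for the stabilized cerebellum and anterior pituitary. Fitting the 4 stabilized libraries alone gave 554 for the stabilized anterior pituitary. Leaving out 1 replicate at a time gave 800 to 944 genes for the WT cerebellum, 378 to 647 for the WT anterior pituitary (378 without cerebellum replicate 1), 633 to 977 for the stabilized cerebellum (633 without anterior pituitary replicate 2) and 830 to 1447 for the stabilized anterior pituitary. The causes were not tested. Replicate numbers did not pair the WT libraries (correlation of deviations -0.0008; stabilized 0.0054), and the replicate block gave 1111 and 643 WT calls and 1026 and 1174 stabilized calls. The alternative with nuclear protein-coding genes alone was chosen after seeing the data and gave 982 and 792 WT calls.

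Of 92 named genes called in WT mice, 74 to 92 kept their call in each alternative and 0 reversed. Cnp, Gria1 and Kit lost their call in 1 alternative, the length offset, Efnb3, Rab3b and Zic2 in 1, the fit of all 24 sorted libraries, and Cacna1e in 1, a minimum of 10 TPM. Some genes not called gained a call, such as Pdgfd in 7 alternatives, Cd74, H2-Aa, Sfrp1 and Thrb in 5, Itpr1 in 4 and Wnt6 in 3. Of genes not called, log2 fold changes turned sign with the length offset for Map2 (-0.18), Vamp2 (-0.14), Esam (1.34), Fgf1 (-0.016) and Jag1 (-0.91). Leaving out 1 library at a time gave ranges across 0 for other genes not called. The sign turned without cerebellum replicate 1 for Pcp4 (-2.04 to 0.79), Hba-a1 (-0.61 to 4.76), Hba-a2 (-0.27 to 4.22), Hbb-bs (-1.46 to 4.35) and Hbb-bt (-2.59 to 4.34), and without cerebellum replicate 2 for Itpr1 (-0.057 to 3.56), C1qa (-0.66 to 1.36), Rspo3 (-7.24 to 8.96), Fgf13 (-0.62 to 1.44) and Cxcl12 (-0.34 to 1.09). It turned without pituitary replicate 1 for Tbx3 (-1.56 to 2.76) and Jag2 (-1.03 to 0.51), and without pituitary replicate 2 for Emcn (-1.33 to 1.98). In the stabilized mice 45.4% of calls were higher in the cerebellum, against 59.9% with the 4 libraries fitted alone. On simulated counts for the WT contrast among 16019 genes tested, 16% of 4-fold, 52% of 8-fold and 66% of 16-fold changes were recovered. In that simulation 50 genes were changed per fold size, far fewer than were called in WT mice. The adjusted p depends on how many genes change, so these rates do not give the detection limit of the real contrast. Genes under 4-fold were called there, such as Etv1 (log2 fold change 1.25) and Cpe (-1.81). A gene that was not called may still differ between the tissues.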
